A study of Mus musculus with 35 samples.

Results

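Small RNA was sequenced from the mouse hippocampus 120 h after status epilepticus (SE), and every small RNA of these libraries is described here. The members are 4 of the 16 small RNA libraries, and of 35 samples in the series in all, which otherwise holds poly(A) mRNA libraries and small RNA of earlier times. SE was induced in C57BL/6J mice of either sex, aged 6 to 7 weeks, by intraperitoneal pilocarpine, a muscarinic agonist, at 350 mg/kg in the labels, which the study raised stepwise until seizures came. Control mice received vehicle, which was bacteriostatic saline, and the study gave scopolamine first to limit effects outside the brain. The 4 libraries carry the same batch label, which they share with those of 1 and 24 h but not of 8 h.

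There were 2 SE and 2 control libraries, each of 1 mouse, and in both groups replicate 1 was female and replicate 2 male, so sex and replicate number cannot be told apart. All 4 mice were wild type, and RNA came, in the labels, from the left hippocampus with all its cell types, so fewer cells of a type and less RNA per cell cannot be told apart. The time label of SE replicate 2 reads 120 h, while its source name gives a different hour. The question was whether small RNA levels differed 120 h after the seizure.

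MicroRNAs are short RNAs that guide Argonaute proteins to mRNAs, which are then repressed, and the target is chosen mainly by the seed, a stretch near the 5′ end of the microRNA. Small nucleolar RNAs (snoRNAs) guide the chemical modification of ribosomal RNA, the C/D box kind by methylation and the H/ACA box kind by pseudouridylation. PIWI-interacting RNAs (piRNAs) silence transposons in the germline, and reads that carry a piRNA name in brain libraries often match fragments of tRNA, rRNA or other RNA.

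The sequences below belong to microRNAs to which the results return. The seed is in capitals, and sequences and positions are from RefSeq on GRCm38.p6. The first group is of vessel, blood and connective tissue cells, and no pair of them shares a seed.
miR-126a-3p: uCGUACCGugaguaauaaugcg
miR-199a-5p: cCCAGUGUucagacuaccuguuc
miR-10b-5p: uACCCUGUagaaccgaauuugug
miR-223-3p: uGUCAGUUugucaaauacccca
miR-451a: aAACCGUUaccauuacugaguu

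The let-7 members are shown because they share 1 seed and stood out together in 1 library.
let-7c-5p: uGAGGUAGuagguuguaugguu
let-7f-5p: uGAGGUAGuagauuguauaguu
let-7g-5p: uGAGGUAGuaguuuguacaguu

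The last group is of microRNAs that were named in the report of the experiment, and among them miR-34b-5p shares its seed with miR-34a-5p and miR-449a-5p.
miR-154-5p: uAGGUUAUccguguugccuucg
miR-503-5p: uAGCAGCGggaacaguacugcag
miR-431-5p: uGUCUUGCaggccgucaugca
miR-34b-5p: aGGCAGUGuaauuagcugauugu

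The gene of miR-126a-3p lies on chromosome 2 (the mature RNA at 26591402 to 26591423, plus strand), in an intron of the endothelial gene Egfl7. That of miR-10b-5p is on the same chromosome (74726074 to 74726096, plus strand), within the HoxD cluster. The mature miR-223-3p is encoded on the X chromosome at 96242884 to 96242905 on the plus strand, and miR-451a on chromosome 11 at 78073186 to 78073207 on the plus strand. The mature miR-154-5p (109738438 to 109738459) and miR-431-5p (109590459 to 109590479) both lie on the plus strand of chromosome 12, in the imprinted Dlk1-Dio3 region.

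The SE libraries held 6553925 and 6870476 counts, against 4102220 and 5124743 in the controls, and the other 12 small RNA libraries held 3171341 to 7683708. MicroRNAs took 93.4% and 94.7% of the counts in SE libraries and 93.3% and 94.1% in control libraries. Of 44884 features, 1103 passed the filter on low counts, among them 663 of 1914 microRNAs, 71 of 77 C/D box snoRNAs and 140 of 39972 entries with a piRNA name. Levels are given as CPM, counts scaled to library size after TMM scaling, and fold changes are log2 values of SE over control from edgeR's quasi-likelihood test, with their standard errors (s.e.). The median s.e. was 0.26 among features of 1000 CPM or more and 0.68 among those under 10 CPM.

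No small RNA passed an adjusted p of 0.05 at 120 h, which is 0 of 1103 (0%), and every adjusted p was 1. At an unadjusted p under 0.05 there were 29 (2.63%), of which 8 were higher and 21 lower after SE. DESeq2 called 1 feature (0.0907%) and gave 36 at an unadjusted p under 0.05. Both SE libraries lay above both controls in 134 small RNAs (12.1%) and below both in 139 (12.6%), which makes 24.8% of all small RNAs without overlap. Among the 225 microRNAs of 100 CPM or more, 10 had a fold change beyond 0.5 in size and 2 beyond 1. Most of these microRNAs thus had a small group difference, which can also arise where the SE replicates lie on opposite sides. Among small RNAs of 100 to 1000 CPM, the median absolute log2 ratio was 0.34 between SE replicates and 0.12 between control replicates. The differences given next are a description of 4 libraries, and none passed the test across all features.

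**Figure D1:**
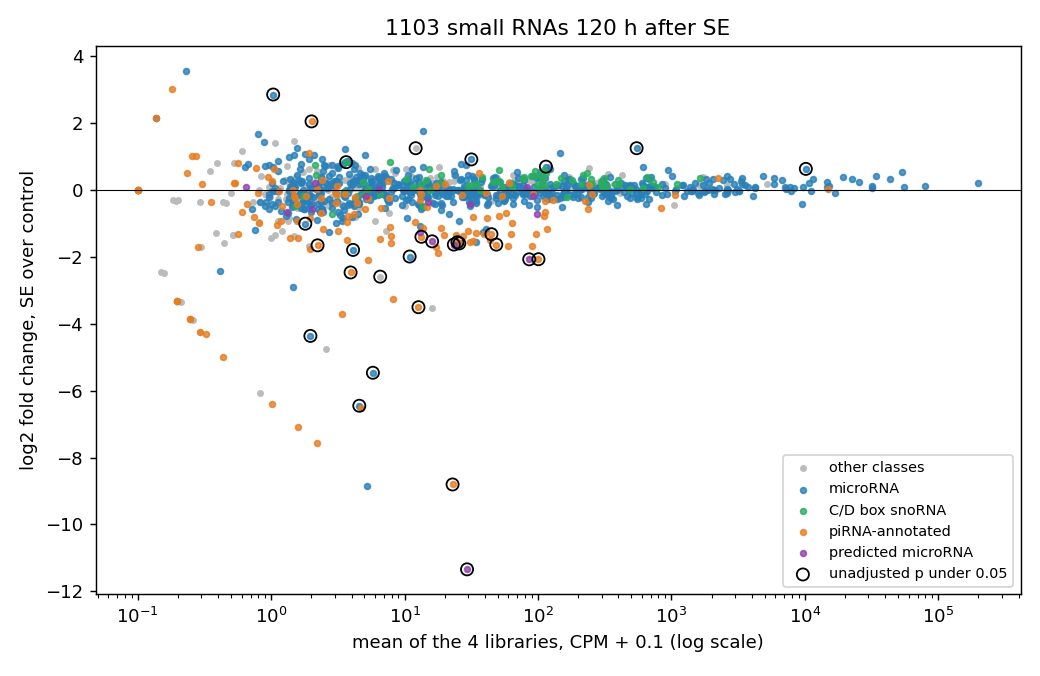
Log2 fold change of SE over control (y axis) against the mean level of the 4 libraries in CPM on a log scale (x axis) for the 1103 small RNAs tested, coloured by class, with 29 features at an unadjusted p under 0.05 circled. Fold changes narrow as the level rises, and no microRNA of 1000 CPM or more lies beyond 1 in size.

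The 2 SE libraries did not move together. SE replicate 2 stood apart, with a TMM factor of 0.84, against 1.06 in SE replicate 1 and 1.09 and 1.01 in the controls. A lower factor gives a higher CPM for the same share of the counts. Among 413 microRNAs of 10 CPM or more, 97 lay over 1.5-fold from the mean of the controls in SE replicate 2 and 20 in SE replicate 1, and only 7 did so in both and in the same direction. The SE replicates lay on opposite sides of that mean for 241 of the 413. SE replicate 2 was over 1.5-fold above all 3 other libraries for 23 of these microRNAs and over 1.5-fold below all 3 for 36, against 2 and 3 for SE replicate 1, 9 and 3 for control replicate 1 and 1 and 8 for control replicate 2. Whether sex or the handling of this library had a part in this was not tested.

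**Figure D2:**
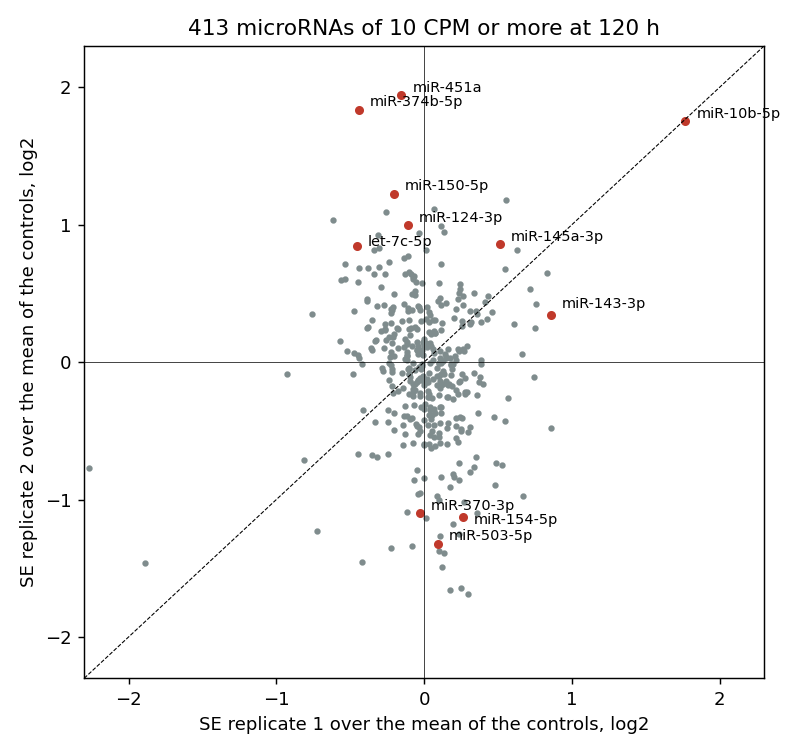
Log2 ratio of each SE library to the mean of the 2 controls (CPM plus 0.5) for 413 microRNAs, SE replicate 1 on the x axis and SE replicate 2 on the y axis, with the line of equality dashed and 1 microRNA outside the axes. The cloud is taller than wide, and miR-10b-5p, miR-143-3p and miR-145a-3p lie above 0 on both axes.

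Of 5 tested microRNAs of vessel wall cells, 3 were higher in both SE libraries than in both controls, without passing the adjusted test. The most abundant is miR-143-3p, which is expressed from 1 transcript with miR-145a in smooth muscle cells and pericytes. It had 14520 and 10156 CPM in SE libraries, against 7418 and 8639 CPM in controls, a log2 fold change of 0.62 (s.e. 0.26, unadjusted p = 0.0345, adjusted p = 1). Its partner miR-145a-3p had 125 and 158 CPM after SE, against 76.9 and 98.7 CPM in controls (0.69, s.e. 0.27, unadjusted p = 0.0256). Both SE values of each lay above both controls, but they overlapped the 6 controls of the other times, which reached 12526 CPM for miR-143-3p and 139 CPM for miR-145a-3p. The other strand, miR-145a-5p, did not separate the groups, with 250 and 141 CPM after SE and 150 and 191 CPM in controls.

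The endothelial microRNA miR-126a-3p, which supports vascular growth factor signalling, had 2821 and 3171 CPM after SE and 1982 and 2520 CPM in controls (0.41, s.e. 0.28, unadjusted p = 0.164). All 5 tested members of the endothelial and mural list had positive fold changes, with a median of 0.41, against -0.01 over all small RNAs tested. Apart from miR-126a-3p, these members are the strands of miR-143 and miR-145a, which share 1 transcript, so they are not independent. Both SE libraries lay above both controls in 3 of the 5, where 12.1% of all small RNAs did. At an unadjusted p under 0.05, 2 of the 5 were higher, where 0.725% of all small RNAs were. They were miR-143-3p and miR-145a-3p, of the shared transcript. The summed level of the list was 17724 and 13632 CPM after SE, against 9631 and 11456 CPM in the 120 h controls and 9933 to 15656 CPM in the other 6 controls. SE replicate 1 was thus above all 8 controls, and SE replicate 2 was within the range of controls of other times. The median was 0.24 without control replicate 1, with all 5 positive, and 0.33 without SE replicate 1, with 3 of the 5 positive. With 1 library left out, the fold change of miR-143-3p ran from 0.33 (without SE replicate 1) to 0.93 (without SE replicate 2), and that of miR-126a-3p from 0.24 to 0.62 (without control replicate 1 and 2).

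Among the 7 microRNAs over 1.5-fold from the mean of the controls in both SE libraries, miR-10b-5p, miR-199a-5p and miR-223-3p were higher and miR-6538, miR-6240, miR-7b-3p and miR-2137 lower, and none passed the adjusted test. These are members picked for their values and not a list. The level of miR-10b-5p, which comes from the HoxD cluster and is low in forebrain, was 21.0 and 20.8 CPM after SE and 8.32 and 4.04 CPM in controls (1.76, s.e. 0.93, unadjusted p = 0.0823). Controls of the other times ran from 1.31 to 19.8 CPM, so both SE libraries lay above all 8 controls, as they did for 19 of the 1103 small RNAs (1.72%). For miR-199a-5p, a microRNA of fibroblasts and other mesenchymal cells, the values were 35.5 and 31.2 CPM after SE and 20.9 and 18.7 CPM in controls (0.75, s.e. 0.37, unadjusted p = 0.0635), and the other 6 controls ran from 14.1 to 34.6 CPM, which holds SE replicate 2. The myeloid microRNA miR-223-3p, which marks neutrophils and monocytes, had 33.7 and 38.5 CPM after SE and 21.1 and 22.1 CPM in controls (0.74, s.e. 0.40, unadjusted p = 0.0928), and the other 6 controls ran from 12.8 to 34.1 CPM, which holds SE replicate 1. The groups overlapped for the other 2 tested myeloid members. For miR-142a-5p, made in all blood cells, the levels were 74.7 and 68.8 CPM after SE and 66.5 and 70.4 CPM in controls.

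Red blood cell microRNAs differed in 1 library. The erythroid miR-451a had 292 and 1249 CPM after SE and 291 and 362 CPM in controls, so that SE replicate 1 matched the controls and SE replicate 2 was 3.45 times the highest of the other 3. Its fitted fold change of 1.24 (s.e. 0.50, unadjusted p = 0.0288) rests on that library and is -0.09 without it. It is made from the same primary transcript as miR-144, and miR-144-5p had 25.7 and 31.4 CPM after SE and 23.4 and 22.9 CPM in controls, a far smaller gap. The pair of identical miR-486a-5p and miR-486b-5p, also abundant in red cells, had 119 and 224 CPM after SE and 141 and 146 CPM in controls. Blood left in the tissue was not measured, and its part in these values was not tested.

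**Figure D3:**
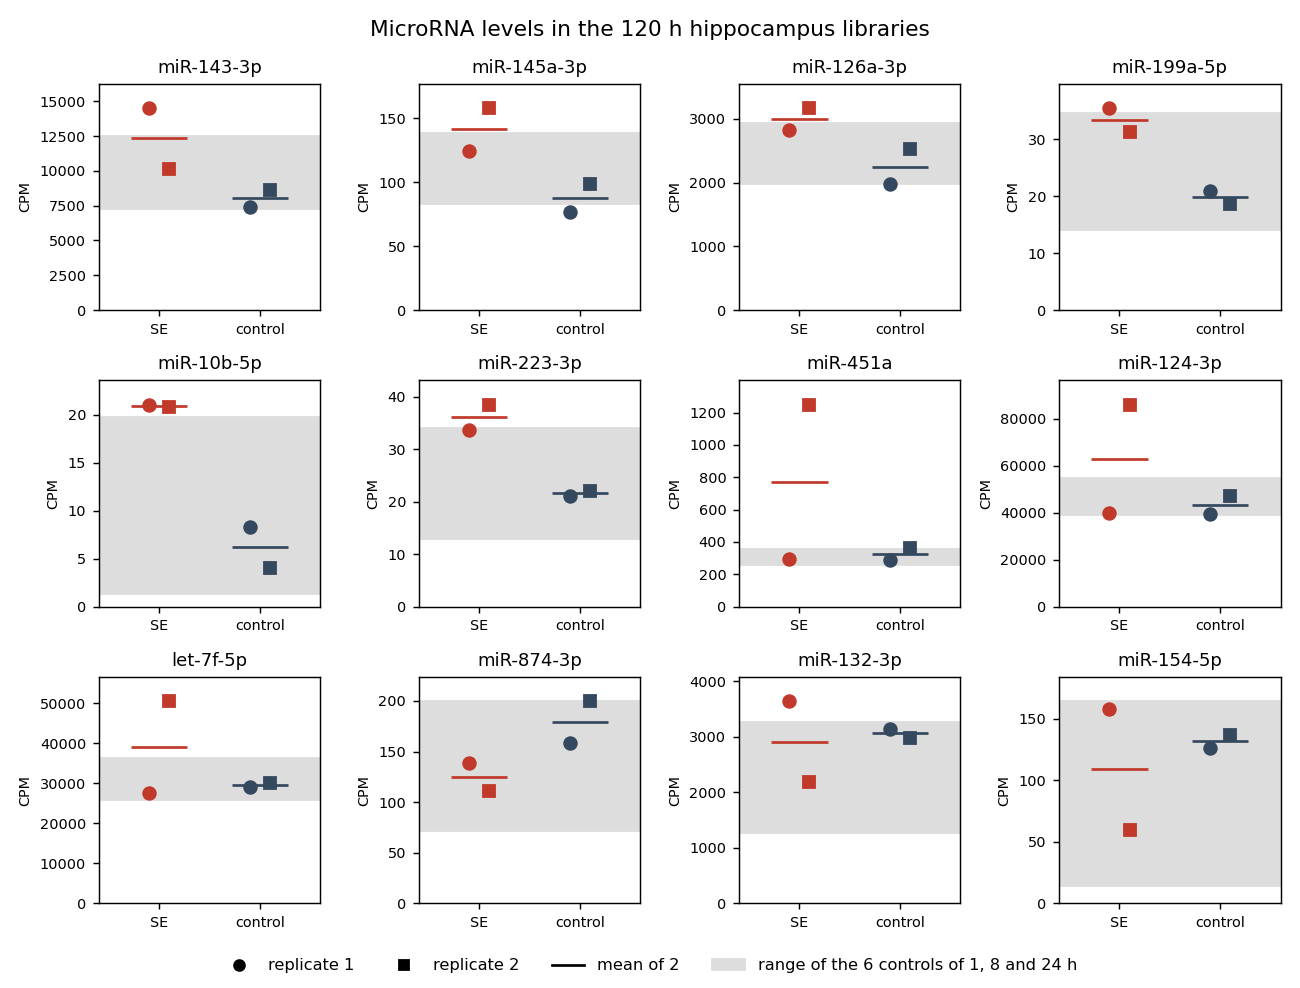
Levels in CPM of 12 microRNAs in SE (red) and control (dark) libraries at 120 h, with circles for replicate 1, squares for replicate 2, a bar at the mean of each group, and a grey band for the range of the 6 controls of 1, 8 and 24 h. The SE points lie above both controls for miR-143-3p, miR-145a-3p, miR-126a-3p, miR-199a-5p, miR-10b-5p and miR-223-3p, and are split for miR-451a, miR-124-3p and let-7f-5p.

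Inflammation-related microRNAs had no common direction in the fit. Of 9 tested, 4 had positive and 5 negative fold changes with a median of 0.00, and none had an unadjusted p under 0.05. That median depended on the SE library. It was 0.17 without SE replicate 2, with 9 of 9 positive, and -0.09 without SE replicate 1, with 4 of 9 positive. The level of miR-155-5p, which promotes inflammatory signalling in microglia and macrophages, was 8.79 and 8.50 CPM after SE and 5.62 and 8.27 CPM in controls (0.31, s.e. 0.47). For miR-21a-5p, which is raised in reactive astrocytes, the values were 6659 and 5831 CPM after SE and 5194 and 5881 CPM in controls (0.17, s.e. 0.23). The brake on innate immune signalling miR-146b-5p had 674 and 611 CPM after SE and 664 and 666 CPM in controls. The groups overlapped for the last pair, and for miR-155-5p the SE values exceeded the higher control by less than 1 CPM.

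Neuronal microRNAs showed no common direction, with 11 positive and 12 negative fold changes among 23 tested and a median of -0.03. The most abundant microRNA of the 4 libraries was miR-9-5p, which acts in neural progenitors and neurons, at 183668 and 243262 CPM after SE and 183891 and 190705 CPM in controls (0.19, s.e. 0.17). Before TMM scaling, miR-9-5p took 19.4% and 20.4% of the counts after SE and 19.9% and 19.3% in controls. The neuronal miR-128-3p had 74225 and 90526 CPM after SE and 75697 and 77604 CPM in controls (0.10, s.e. 0.26). The level of miR-124-3p, which defines the neuronal state by repressing non-neuronal mRNAs, was 40038 and 85935 CPM after SE and 39588 and 47030 CPM in controls. Here SE replicate 1 lay between the controls, and the fold change of 0.54 (s.e. 0.28, unadjusted p = 0.0817) was -0.04 without SE replicate 2. The passenger strand miR-124-5p ran the other way in that library, with 268 and 150 CPM after SE and 265 and 273 CPM in controls.

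Of the 23 neuronal members, both SE libraries lay above both controls in 2, miR-218-1-3p and miR-129-1-3p, and below both in 1, miR-128-1-5p. Over all small RNAs these shares were 12.1% and 12.6%, so the list did not exceed them. The microRNA miR-7a-5p, which is abundant in neurosecretory and other neurons and was not on that list, had 6466 and 6731 CPM after SE and 5336 and 5090 CPM in controls (0.34, s.e. 0.20, unadjusted p = 0.108). Together with miR-7b-5p, which has the same seed, its family summed to 8983 and 9564 CPM after SE and 7608 and 7160 CPM in controls. The activity-regulated miR-132 and miR-212, which are cut from 1 CREB-driven transcript, did not differ in one direction. The level of miR-132-3p was 3644 and 2185 CPM after SE and 3150 and 2984 CPM in controls, and that of miR-212-3p was 275 and 241 CPM after SE and 265 and 240 CPM in controls. The median fold change of the 6 activity-regulated members was 0.00. It was 0.20 without SE replicate 2, with 5 of 6 positive, and -0.07 without SE replicate 1, with 2 of 6 positive.

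The let-7 family, whose members repress growth genes, had 19 positive and 2 negative fold changes among 21 tested, with a median of 0.25. The summed level of let-7 was 102749 and 187110 CPM after SE, against 110541 and 122392 CPM in controls, so SE replicate 1 was the lowest of the 4 libraries and SE replicate 2 the highest. The other 6 controls held 107890 to 145131 CPM. Among the members with the GAGGUAG seed, let-7c-5p had 14500 and 35737 CPM after SE and 17922 and 22064 CPM in controls. For let-7f-5p these were 27491 and 50566 CPM after SE and 29226 and 30055 CPM in controls, and for let-7g-5p they were 24004 and 31267 CPM after SE and 22402 and 25137 CPM in controls. Without SE replicate 2, the family median was -0.03 and 9 of the 21 were positive.

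Oligodendrocyte microRNAs, of which miR-219a-2-3p promotes myelination, were within the control range. Its level was 1819 and 2240 CPM after SE and 1605 and 1944 CPM in the 120 h controls, and 1883 to 3035 CPM in the other 6 controls. The miR-29 and miR-30 families, of which miR-29 represses collagen genes, had 15 positive fold changes among 18 tested and a median of 0.14, which was 0.02 with 11 of 18 positive without control replicate 1. The minor strand miR-29a-5p was 32.3 and 49.9 CPM after SE and 24.7 and 19.2 CPM in controls (0.90, s.e. 0.38, unadjusted p = 0.0336), where the 6 other controls ran from 6.94 to 33.1 CPM. Its major strand miR-29a-3p, at 31117 and 35299 CPM after SE and 27493 and 33515 CPM in controls, did not separate the groups.

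The X-linked cluster of miR-322 and miR-503, whose members relate to the miR-15/16 family and restrain the cell cycle, did not move as one. Its median fold change was 0.14, with 6 of 9 positive. The median was 0.34 without SE replicate 2, with 8 of 9 positive, and -0.02 without SE replicate 1, with 4 of 9 positive. Both SE libraries exceeded both controls for miR-322-3p, miR-450a-5p, miR-450b-5p and miR-450b-3p, which is 4 of 9 tested, against 12.1% of all small RNAs. The member miR-450a-1-3p lay below both controls, with 2.02 and 2.08 CPM after SE and 2.25 and 2.31 CPM in controls. For miR-450b-3p the levels were 6.63 and 6.42 CPM after SE and 4.05 and 4.42 CPM in controls (0.62, s.e. 0.29, unadjusted p = 0.0550). The level of miR-503-5p was 50.7 and 18.7 CPM after SE and 43.6 and 51.7 CPM in controls (-0.46, s.e. 0.40, unadjusted p = 0.276). Only SE replicate 2 was low in it, and without that library the value was 0.16.

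For miR-154-5p, miR-431-5p and miR-34b-5p, too, the low value was that of a single library. The level of miR-154-5p was 158 and 60.003 CPM after SE and 126 and 137 CPM in controls (-0.27, s.e. 0.51, unadjusted p = 0.603). For miR-431-5p, a growth-related microRNA of the same imprinted region, the levels were 128 and 48.9 CPM after SE and 111 and 75.0 CPM in controls (-0.08, s.e. 0.44, unadjusted p = 0.861). For miR-34b-5p, which acts in multiciliated cells, they were 53.8 and 18.9 CPM after SE and 61.4 and 33.9 CPM in controls (-0.39, s.e. 0.73, unadjusted p = 0.604). In all of these, SE replicate 2 was the lowest of the 4 libraries.

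Of 92 tested microRNAs of the Dlk1-Dio3 cluster, which is expressed from the maternal chromosome in neurons, 34 had positive and 58 negative fold changes, and the median was -0.06. Both SE libraries lay below both controls in 15 of the 92 and above in 5, against 12.6% and 12.1% of all small RNAs. None had an unadjusted p under 0.05. The member miR-376b-3p had 1024 and 1287 CPM after SE and 845 and 889 CPM in controls (0.41, s.e. 0.26, unadjusted p = 0.132), while miR-370-3p had 449 and 213 CPM after SE and 467 and 448 CPM in controls. The summed level was 55774 and 50298 CPM after SE and 51821 and 54641 CPM in controls, which overlap. Without SE replicate 2 the median of the cluster was 0.12 and 71 of the 92 were positive.

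The non-coding host transcript Meg3, which starts this cluster, was measured in the mRNA libraries of other mice killed at 120 h, where 3 SE mice were set against 3 controls shared with the 36 h group. Meg3 had 1.56, 0.707 and 1.20 CPM after SE and 7.95, 6.41 and 2.39 CPM in controls (-2.29, s.e. 0.47, adjusted p = 0.221 over 15996 genes). The groups did not overlap, but the call was missed by the quasi-likelihood test and made by DESeq2 (adjusted p = 1.181e-04) and by the likelihood ratio test (0.001925). Of 30 tested host genes of microRNAs and snoRNAs, 0 passed the adjusted test, where 0.0563% of all genes did. The 3 SE libraries lay above the 3 controls in 1 host gene and below in 4, against 7.29% and 8.2% of all genes. In the unadjusted test 4 had an unadjusted p under 0.05, against 9.6% of all genes. They were Meg3, Ank1 (host of miR-486a), R3hdm1 (host of a miR-128 gene) and Gas5 (host of C/D box snoRNAs). Gas5 had 127, 125 and 111 CPM after SE and 110, 110 and 106 CPM in controls (0.16, s.e. 0.06, adjusted p = 0.461).

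MicroRNAs of choroid plexus and other epithelia varied between the controls themselves. Their summed level was 4050 and 4208 CPM after SE and 5272 and 2411 CPM in the 120 h controls, and 1559 to 8939 CPM in the other 6 controls. The microRNAs cut from introns of the serotonin receptor gene Htr2c, which choroid plexus expresses strongly, summed to 4285 and 3020 CPM after SE and 5203 and 1277 CPM in controls. Control replicate 1 was the highest of the 4 and control replicate 2 the lowest for this list. The sensory cluster member miR-182-5p had 39.6 and 10.8 CPM after SE and 101 and 11.9 CPM in controls. For its neighbour miR-183-5p the levels were 33.9 and 11.4 CPM after SE and 99.8 and 9.23 CPM in controls. The highest library was control replicate 1 for both. The level of miR-211-5p, which has the seed of the choroid plexus microRNA miR-204-5p, was 1.30 and 2.25 CPM after SE and 10.6 and 1.92 CPM in controls, and its unadjusted p of 0.0225 rests on the same control library.

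Of the 10 microRNAs of 100 CPM or more with a fold change beyond 0.5 in size, miR-874-3p was the 1 with a negative value. It had 139 and 111 CPM after SE and 158 and 200 CPM in controls (-0.52, s.e. 0.24, unadjusted p = 0.0531). The value was -0.30 without either SE replicate 2 or control replicate 2. The other 6 controls ran from 71.5 to 200 CPM, but the low end was that of the 8 h controls, of another batch label (77.1 and 71.5 CPM). The controls of 1 and 24 h held 196, 145, 200 and 177 CPM, above both SE libraries. The level of miR-491-5p was 11.4 and 9.71 CPM after SE and 14.2 and 17.5 CPM in controls (-0.58, s.e. 0.30, unadjusted p = 0.0752). For miR-1968-5p these were 0.865 and 1.39 CPM after SE and 2.25 and 2.31 CPM in controls, and both SE libraries were below all 8 controls, as for 21 of the 1103 small RNAs (1.9%). At such levels a gap rests on few reads.

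Most C/D box snoRNAs had higher values after SE, without passing the adjusted test. Of 71 tested, 60 had positive and 11 negative fold changes, with a median of 0.21, and both SE libraries lay above both controls in 27 and below in 6, against 12.1% and 12.6% of all small RNAs. In sum they held 12320 and 14783 CPM after SE and 11560 and 11550 CPM in the 120 h controls. Before TMM scaling, they took 1.304% and 1.241% of the counts after SE and 1.254% and 1.171% in these controls, which overlap. The other 6 controls held 12082 to 15913 CPM, so the SE libraries were within the range of controls of other times, and the 120 h controls were the lowest of all 8. With all 8 controls as the reference, those of 8 h with another batch label included, the median was 0.12 and 43 of the 71 were positive. Without SE replicate 2 the median was 0.16.

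The C/D box snoRNAs with the smallest p were low to middling in level. Snord1b had 4.76 and 4.34 CPM after SE and 2.02 and 3.08 CPM in controls (0.82, s.e. 0.36, unadjusted p = 0.0432). The other 6 controls ran from 3.95 to 10.4 CPM, which holds both SE values, and with all 8 controls as the reference the value was -0.066. The highest of them were the 8 h controls, of another batch label (6.00 and 10.4 CPM). Those of 1 and 24 h held 4.05, 4.52, 3.95 and 4.63 CPM, which SE replicate 1 exceeded and SE replicate 2 did not. Snord42a had 10.1 and 9.36 CPM after SE and 7.42 and 3.66 CPM in controls, and Snord14c had 49.6 and 72.5 CPM after SE and 39.3 and 41.7 CPM in controls. The abundant Snord99 had 582 and 903 CPM after SE and 563 and 570 CPM in controls (0.39, s.e. 0.27, unadjusted p = 0.168). For Snord99, SE replicate 1 was close to the higher control and the fold change was 0.11 without SE replicate 2.

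The 27 tested snoRNAs placed in the imprinted Prader-Willi region, whose C/D box RNAs are made in neurons, had a median fold change of 0.19 with 23 positive, which was 0.10 without control replicate 1, 0.38 without SE replicate 1 and 0.39 without control replicate 2. The 23 H/ACA box snoRNAs had a median of -0.01, with 11 positive and 12 negative, which was -0.28 without SE replicate 1 and 0.19 without SE replicate 2. Snora62 had 0.288 and 1.04 CPM after SE and 1.35 and 1.73 CPM in controls. The small Cajal body RNA Scarna9, which guides the modification of spliceosomal RNA, had 26.5 and 49.4 CPM after SE and 30.1 and 28.9 CPM in controls. The positive median of the C/D box kind was not seen in the H/ACA box kind, and the difference between the kinds was not tested.

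**Figure D4:**
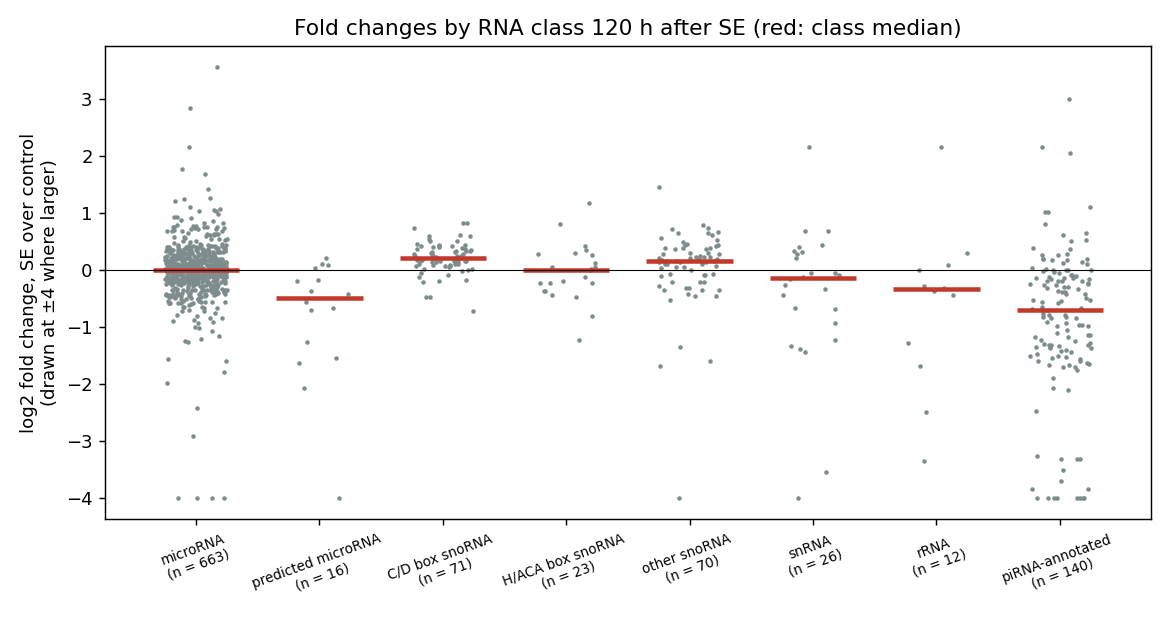
Log2 fold change of SE over control (y axis) for each small RNA tested, by class (x axis, with the number tested), with values beyond 4 in size drawn at 4 and the class median as a red bar. The median was 0.21 for C/D box snoRNAs, 0.00 for microRNAs, -0.50 for predicted microRNAs and -0.71 for entries with a piRNA name.

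Most features with a piRNA name had lower values after SE, without passing the adjusted test, with 111 negative and 26 positive fold changes among 140 tested and a median of -0.71. Both SE libraries lay below both controls in 32 of them and above in 5, against 12.6% and 12.1% of all small RNAs, and 10 of the 21 small RNAs lower at an unadjusted p under 0.05 (1.9% of all) belong to this class. The smallest p of all small RNAs was that of mmu_piR_000578, with 9.08 and 5.38 CPM after SE and 26.3 and 12.3 CPM in controls (-1.41, s.e. 0.43, unadjusted p = 0.0067, adjusted p = 1). Its level in the other 6 controls ran from 6.88 to 52.0 CPM, which includes SE replicate 1. The high values were those of the 8 h controls, of another batch label (28.3 and 52.0 CPM). The controls of 1 and 24 h held 7.15, 6.88, 8.82 and 9.95 CPM, below both 120 h controls. The fold change was -0.77 without control replicate 1. The entry mmu_piR_020554 had 3.60 and 0.347 CPM after SE and 19.6 and 26.9 CPM in controls, with 4.70 to 118 CPM in the other 6 controls. Running the other way, mmu_piR_005502 had 1.15 and 5.03 CPM after SE and 0.674 and 0.770 CPM in controls (2.04, and 0.73 without SE replicate 2).

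The spread between the controls was wide in this class. Of the 140, 46 differed over 2-fold between the control replicates and 26 between the SE replicates, where 104 and 121 of all 1103 did. The median of the class was -0.19 without control replicate 1, -0.51 without control replicate 2, -1.08 without SE replicate 1 and -0.32 without SE replicate 2. It was -1.21 with all 8 controls as the reference, which takes in the 8 h controls of another batch label. Its size thus varied with the libraries used, while its sign did not. The 16 predicted microRNAs, which are candidates listed by the counting software and not known genes, had a median of -0.50. It was -0.18 without SE replicate 2 and -0.32 without control replicate 1. With all 8 controls as the reference, those of 8 h included, it was -0.84. Among the predicted microRNAs, p-mmu-miR-45 had 13.5 and 9.02 CPM after SE and 49.4 and 21.2 CPM in controls (-1.64, s.e. 0.51, unadjusted p = 0.0077), and p-mmu-miR-16 had 31.3 and 34.3 CPM after SE and 231 and 46.9 CPM in controls. In both, control replicate 1 was the highest of the 4 libraries, and without it their fold changes were -0.91 for p-mmu-miR-45 and -0.52 for p-mmu-miR-16.

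A set of 13 features was carried by 1 library, control replicate 2, with 90% or more of their CPM there and at least 5 CPM, and the other 3 libraries had 0 such features each. The largest was p-mmu-miR-36, with 0 and 0 CPM after SE and 0 and 117 CPM in controls, which was the only feature called by DESeq2 (adjusted p = 0.009466). The set includes miR-5119, with 0 and 0.173 CPM after SE and 0.225 and 17.5 CPM in controls, and both miR-7654-3p and miR-5124a. Each of the 13 reached 168 CPM or more in at least 1 of the 12 libraries of other times. For p-mmu-miR-36, miR-5119 and miR-5124a, only 1 of these 12 libraries held 5 CPM or more, while for miR-7654-3p it was 3. For miR-5119 that library was control replicate 2 of 8 h, of another batch label (358 CPM). Control replicate 1 was at or near 0 for all 13, so their negative fold changes rest on control replicate 2.

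The 120 h change was set against the change at each earlier time, each with its own controls. No small RNA passed in the contrast with 24 h (0%), 8 h (0%) or 1 h (0%), and at an unadjusted p under 0.05 there were 9 (0.816%), 38 (3.45%) and 36 (3.26%). DESeq2 called 3, 0 and 0, and the 3 (p-mmu-miR-36, miR-5124a and mmu_piR_009283) all belong to the 13 features carried by control replicate 2. In the contrast with 24 h, miR-7a-5p had a difference of 0.72 (s.e. 0.28, unadjusted p = 0.0229), and Snord1b one of 1.35 (s.e. 0.51, unadjusted p = 0.0214). For miR-143-3p the 1, 8, 24 and 120 h fold changes were 0.09, 0.67, 0.01 and 0.62. Its 2 SE libraries of 8 h held 23775 and 15373 CPM, against 12526 and 12148 CPM in the 8 h controls. For miR-451a they were -0.06, 0.71, -0.14 and 1.24 in the same order.

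By list, the endothelial and mural microRNAs had medians of 0.09, 0.47, 0.01 and 0.41 at 1, 8, 24 and 120 h, where those of all small RNAs were 0.07, 0.03, -0.03 and -0.01. The C/D box snoRNAs had 0.54, -0.02, -0.13 and 0.21, and the let-7 family -0.11, 0.05, 0.18 and 0.25. The Htr2c intron microRNAs had 0.85 and 0.78 at 1 and 8 h but 0.05 and -0.11 at 24 and 120 h. The 120 h value turned with 1 library: it was 1.30 without control replicate 1 and -0.67 without control replicate 2, and 0.46 without SE replicate 2. These medians describe 2 SE against 2 control libraries at each time, and their differences were not tested.

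**Figure D5:**
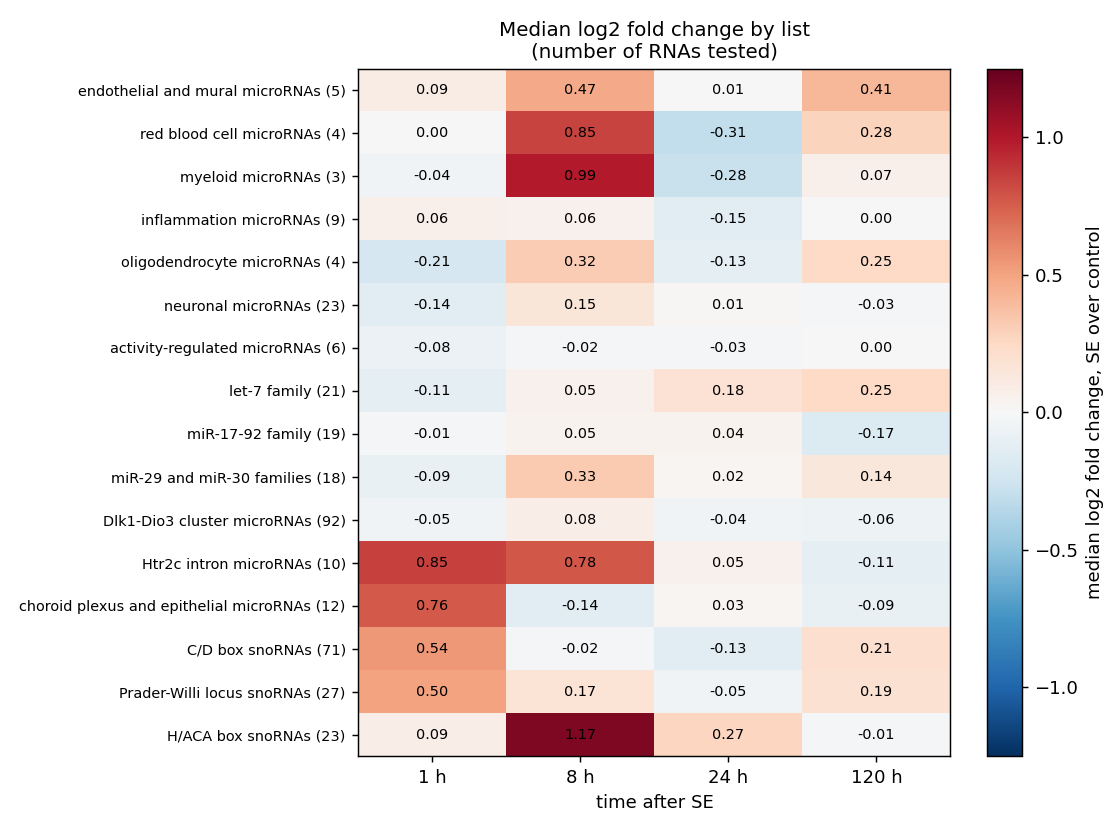
Median log2 fold change of SE over control for 16 lists of small RNAs (rows, with the number tested) at 1, 8, 24 and 120 h (columns), coloured from blue (lower after SE) to red (higher). At 120 h the medians run from -0.17 for the miR-17-92 family to 0.41 for endothelial and mural microRNAs, and the miR-17-92 median was 0.01 without control replicate 2.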

How the data were processed

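Small RNA libraries were made with the NEXTflex small RNA kit. The authors trimmed 4 bases from each read end and counted with Oasis 2.0, and they deposited raw counts per feature. The genome build behind these counts is not given in the sources used here. mRNA counts, deposited by the authors, came from HISAT2 2.1.0 on NCBIM37 and HTSeq. Counts were normalized by TMM and tested with edgeR 4.0.16 (R 4.3.3) in 1 quasi-likelihood model of 8 groups and 16 libraries after filterByExpr. P values were adjusted by Benjamini-Hochberg over all features tested, with a threshold of 0.05. The steps were tested on simulated data. Alternatives included DESeq2 1.42.0 and are given in the closing section. RNA classes came from the names and from RefSeq, which matched 2245 of 2928 other names. Of 45 host genes listed, 32 were found and 30 tested.

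The named small RNAs are those with the smallest p among separate groups, those the study names, up to 4 members of each list, the most abundant microRNAs and the leading ones of each contrast, of which the text takes a part. Outside this rule, miR-145a-5p, miR-7b-5p, miR-7654-3p, miR-5124a, p-mmu-miR-36, miR-129-1-3p, miR-128-1-5p, miR-450a-1-3p, miR-6240, miR-7b-3p, miR-2137 and mmu_piR_009283 were chosen after their values were seen. Members and lists were chosen with earlier results of these data known. The animal table of the study lists another final pilocarpine dose for these mice than the labels. P values of the small RNAs measure the spread between mice within a group, pooled over the 8 groups and 16 libraries of the model. These include the 8 h libraries, which carry another batch label. All mice are of 1 study, and depth limits only the rare features.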

Additional observations from a re-analysis of the deposited data

How the results depend on the processing

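With 59 named small RNAs, 616 of 628 values under other settings kept their sign and stayed uncalled. None was called at 120 h by default (0), while DESeq2 called 1 and no filter on low counts 32, of 11109 features tested, all of them lower and 13 of them carried by control replicate 2. Leaving out each library in turn gave 0 calls throughout. At an unadjusted p under 0.05 there were 29, but 86 without SE replicate 1, 6 without SE replicate 2, 19 without control replicate 1 and 44 without control replicate 2. In the contrast with 24 h, DESeq2 called 3 and no filter 5. In that with 8 h, no filter called 19 and leaving out a library 0 to 8, the 8 being without SE replicate 2 of 8 h, and in that with 1 h no filter called 37. Of host transcripts, the likelihood ratio test, DESeq2 and no filter each called 1, Meg3. The causes were not tested.

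With all 8 controls as the reference the sign changed for miR-132-3p (0.16), miR-219a-2-3p (-0.15), miR-154-5p (0.030), miR-431-5p (0.086), miR-448-3p (-0.16) and Snord1b (-0.066). That reference takes in the 8 h controls, which carry another batch label. In them miR-132-3p had 1498 and 1269 CPM and miR-154-5p 14.2 and 28.1 CPM. The controls of 1, 24 and 120 h ran from 2576 to 3276 CPM and from 107 to 164 CPM. The gap was smaller for miR-431-5p, at 71.4 and 78.8 CPM against 75.0 to 111 CPM. Leaving out 1 library changed the sign in 24 of 236 values, with these ranges: miR-146b-5p -0.13 to 0.10, miR-142a-5p -0.0047 to 0.20, miR-451a -0.091 to 1.92, miR-486a-5p and miR-486b-5p -0.19 to 0.63, miR-124-3p -0.041 to 0.98, miR-132-3p -0.50 to 0.33, miR-212-3p -0.079 to 0.20, let-7c-5p -0.39 to 0.83, let-7f-5p -0.033 to 0.76, miR-338-5p -0.0049 to 0.61, miR-154-5p -1.15 to 0.34, miR-503-5p -1.36 to 0.16, miR-431-5p -0.94 to 0.54, miR-34b-5p -1.35 to 0.26, miR-34c-5p -0.58 to 0.51, miR-448-3p -0.33 to 1.57, miR-182-5p -2.41 to 1.08, miR-183-5p -2.26 to 1.29, miR-370-3p -1.115 to 0.051 and Scarna9 -0.076 to 0.73. With their sign kept, Snord99 ran from 0.11 to 0.66, mmu_piR_005502 from 0.73 to 2.75, miR-874-3p from -0.70 to -0.30, mmu_piR_000578 from -1.85 to -0.77, p-mmu-miR-45 from -2.08 to -0.91, p-mmu-miR-16 from -2.79 to -0.52 and miR-211-5p from -2.55 to -0.13.

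At 120 h the replicate number stands for sex in both groups, but deviations of same-numbered libraries correlated at 0.18, -0.20, -0.04 and -0.08 at 1, 8, 24 and 120 h, so the numbers were not taken to pair the samples. The replicate block gave 0 calls at 120 h and 18 at an unadjusted p under 0.05. The block gave 0 calls in each other comparison. Crossing the control numbers of 8 h in the block, chosen after seeing the data, gave 0. With 2 libraries a group, features under 10 CPM had a median standard error of 0.68 on the log2 scale, so small differences were not detectable there.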
